A study of Mus musculus with 6 samples.

Results

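Mitosis and the passage between phases of the cell cycle were followed through 39 genes: cyclins, cyclin-dependent kinases (CDKs) and their activators and inhibitors, mitotic kinases, the spindle checkpoint, motors of the spindle and of cytokinesis, and centromere proteins. They were chosen by symbol from a list of 39, and all 39 were found among the 55298 annotated genes of the count table and among the 15143 genes tested. RNA had been sequenced from epithelial cells isolated from the small intestine in a mouse model of collagen-induced arthritis, in which immunisation with collagen inflames the joints. The 3 libraries labelled knockout carry the genotype HIF2α +/- ΔIEC, and the 3 control libraries, from littermates, carry HIF2α +/- F/F. All 6 libraries share the arthritis model and the +/- of HIF2α, which the sources used here do not explain. The series names an intestine-specific knockout of HIF2α; the promoter that drives the recombinase, the strain background, the age of the mice and the time after immunisation are not stated there. Epas1 encodes HIF2α, an oxygen-regulated transcription factor subunit, and the comparison was set up to show which epithelial transcripts depend on it.

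Cells divide in the crypts of the intestine and stop dividing as they move onto the villi, so transcripts particular to dividing cells come mainly from the crypt. Cyclin D with Cdk4 or Cdk6 and cyclin E with Cdk2 carry a cell into DNA synthesis by releasing E2F factors from the retinoblastoma protein, and p21 (Cdkn1a) and p27 (Cdkn1b) inhibit these kinases. Cyclin B with Cdk1 starts mitosis, the spindle checkpoint holds back the anaphase-promoting complex until chromosomes are attached, and kinesins and their partners then divide the cell. Many of the late genes are transcribed through a cell cycle homology region (CHR), bound by the DREAM and MuvB complexes, close to CCAAT boxes that bind NF-Y.

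The promoters of 4 of the genes are shown because they carry the same pair of elements while the transcripts differed between the groups in opposite directions. Bub1b and Kif23 were higher, and Cdc20 and Ube2c lower, in the libraries labelled knockout. This held without and with the correction for GC content and length described below, but none of the 4 corrected calls held in every setting. Median transcript GC content was 46.8% and 46.0% for Bub1b and Kif23, and 54.2% and 53.4% for Cdc20 and Ube2c. Their uncorrected directions were those of most tested genes of like GC content. Each sequence runs 5′ to 3′ on the gene's own strand from 250 bases before to 50 bases after the annotated start (RefSeq, GRCm38.p6). Capitals mark TTTGAA, the CHR element, and CCAAT, the NF-Y box, read on either strand. In Ube2c the run CCAATTGG holds the box on both strands, and no CHR match overlapped an NF-Y match.
Bub1b, chr2:118597961-118598260, plus strand: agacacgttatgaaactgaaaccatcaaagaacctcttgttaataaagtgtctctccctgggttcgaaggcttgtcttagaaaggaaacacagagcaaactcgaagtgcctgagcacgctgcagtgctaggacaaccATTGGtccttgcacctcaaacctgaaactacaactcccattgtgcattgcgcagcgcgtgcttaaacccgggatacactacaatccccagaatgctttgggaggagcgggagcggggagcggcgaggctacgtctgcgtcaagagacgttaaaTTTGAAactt
Kif23, chr9:61946750-61947049, minus strand: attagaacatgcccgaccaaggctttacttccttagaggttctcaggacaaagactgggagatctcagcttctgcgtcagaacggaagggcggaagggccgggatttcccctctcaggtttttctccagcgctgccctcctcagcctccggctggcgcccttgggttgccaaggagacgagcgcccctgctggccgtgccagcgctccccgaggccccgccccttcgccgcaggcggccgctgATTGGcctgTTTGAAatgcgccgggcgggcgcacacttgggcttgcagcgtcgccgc
Cdc20, chr4:118437294-118437593, minus strand: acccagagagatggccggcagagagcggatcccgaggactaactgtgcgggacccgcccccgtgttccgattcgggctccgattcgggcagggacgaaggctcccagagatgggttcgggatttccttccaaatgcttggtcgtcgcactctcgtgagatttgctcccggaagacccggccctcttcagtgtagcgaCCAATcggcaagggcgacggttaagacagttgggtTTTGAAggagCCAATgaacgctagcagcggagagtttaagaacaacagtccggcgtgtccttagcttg
Ube2c, chr2:164769679-164769978, plus strand: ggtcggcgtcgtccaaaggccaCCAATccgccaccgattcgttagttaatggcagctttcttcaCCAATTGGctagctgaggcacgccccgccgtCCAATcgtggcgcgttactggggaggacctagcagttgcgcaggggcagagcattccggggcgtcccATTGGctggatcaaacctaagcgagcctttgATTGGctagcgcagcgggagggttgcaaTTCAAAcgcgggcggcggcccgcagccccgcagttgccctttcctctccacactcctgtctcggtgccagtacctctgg
The CHR match of Cdc20 lies just before the start and that of Kif23 just after it, each a few bases from a CCAAT box.

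Promoters were found for 30 of the 39 genes, 33 promoters in all. The genes without one were Kif20a, Ccnd1, Ccnd2, Ccna2, Ccne2, Cdc25c, Aurkb, Foxm1 and Tpx2. Ccnd3, Cdkn1a and Prc1 entered with 2 promoters each, and those of Prc1 overlap and hold the same matches. TTTGAA was in 15 of the 33, or 45.5%, against 17.9% of 32851 promoters of the same length in the table. CCAAT was in 69.7% against 37.4%, and both together in 45.5% against 6.95%. An E2F site, spelled TTTCCCGC, TTTGGCGC or TTTCGCGC on either strand, was in 9.09% against 1.84%. Counted by gene, TTTGAA was in 14 of the 30 and CCAAT in 22. Of the 14 genes with CHR and CCAAT in 1 promoter, 6 were higher, 5 lower and 3 not called without correction. Of the 16 without the pair, 6 were higher, 7 lower and 3 not called. With correction the 14 genes split into 2 higher, 6 lower and 6 not called, and the other 16 into 1, 3 and 12. Of all tested genes, 37.2% were higher and 29.7% lower without correction, and 14.3% and 15.6% with it. Calls among all genes with the pair are not given here, and a link of the calls to the pair was not tested. The matches describe letters in these windows and were not tested as binding sites.

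Libraries held 28937122 to 38454620 counted reads, and single members 35 to 18488 reads in a library. Levels are given as read counts normalised to library size (CPM) with edgeR's TMM factors. The labels do not say whether each library came from its own mouse, so p-values measure the spread between these libraries, which may be technical. Epas1, the targeted gene, had 12.2, 19.4 and 17.5 CPM in the control libraries and 44.2, 25.9 and 31.9 CPM in those labelled knockout. It was thus higher in every library labelled knockout (log2 fold change 1.06, SE 0.28, adjusted p = 0.0061, edgeR), against its label. Directions are therefore stated by label alone, and since a gene's count takes in all its exons, exons outside a deleted part contribute to it.

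The libraries also differed in how gene counts followed the GC content of the annotated transcripts. A gene's deviation rose with transcript GC content in the control libraries, by 0.96, 0.93 and 0.44 log2 units per 10% GC, and fell with it in those labelled knockout, with slopes of -0.79, -0.89 and -0.64. Each comparison is therefore given without correction and after the trend of each library with GC content and length had been removed, and a gene is called where its adjusted p is below 0.05. The GC trend and the genotype label separate the libraries in the same way and cannot be told apart, and the correction also removes any true difference that follows GC content.

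Marker genes placed the libraries as follows. Summed levels of 18 villus enterocyte markers were 30019 to 40344 CPM in the control libraries and 18105 to 22754 CPM in those labelled knockout, while 17 crypt stem cell markers summed to 909 to 1056 and 1684 to 2201 CPM. Of all tested genes, 37.2% were called higher and 29.7% lower without correction, and 14.3% and 15.6% with it. Of the villus markers 7 were called higher and 5 lower without correction, near those shares, and 0 higher and 7 lower with it. Of the crypt markers 7 were higher and 4 lower without correction, and 5 and 1 with it. Of the 17, 4 were higher in both fits, among them Lgr5 and Olfm4, defining stem cell markers (corrected log2 fold changes 1.30 and 1.32, adjusted p = 0.023 and 0.016, edgeR). Others of the 17 had negative values in both fits: Ascl2 was at -1.465 and, corrected, -0.19, Sox9 at -0.43 and -1.474, and Ephb3 at -1.153 and -0.34. The 13 T lymphocyte markers summed to 499 to 1327 and 434 to 2645 CPM. B and plasma cell markers summed to 125 to 302 and 72.4 to 420.0 CPM, with Ms4a1 and Mzb1 below the filter on low counts. Myeloid markers summed to 20.6 to 51.0 and 45.0 to 130.3 CPM and stromal and endothelial markers to 22.0 to 38.0 and 28.5 to 58.8 CPM. Paneth cell markers summed to 24829 to 31444 and 8878 to 38292 CPM. The 7 general epithelial markers were at 19120.0 to 24305 and 9366 to 12343 CPM, and at 13997 to 16665 and 12483 to 15975 CPM after correction, where the groups overlapped. The labelled cell type was thus present in all 6 libraries. In whole-epithelium RNA, a changed share of the cells that hold a transcript, cycling or not, and a changed amount per cell cannot be told apart. The part of the crypt and villus sums in the results below was not tested.

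Without correction, the libraries labelled knockout had higher levels of 18 of the 39 genes (46.2%) and lower levels of 12 (30.8%), where 37.2% and 29.7% of all tested genes were. Genes were called in both directions: the higher genes included all 6 of the spindle and cytokinesis group, and the lower genes Cdk4, Ccnd3, Cdkn1a, Aurka and Plk1. The median of the 39 log2 fold change was 0.92, against 0.15 over all genes. After correction, 5 genes (12.8%) were higher and 9 (23.1%) lower, beside 14.3% and 15.6% of all tested genes, and the median was -0.24 against -0.02. The share of higher genes lay near that of all genes in the corrected fit. With total count scaling the uncorrected split was 20 higher and 6 lower. In that setting the median log2 fold change was 0.61 over all tested genes and 1.36 over the 39, and shares of all genes are not given here. The lower calls of Ccne1, Cdc25b, E2f1, Aurka, Birc5 and Cenpa ended with that scaling (adjusted p = 0.28, 0.062, 0.085, 0.13, 0.13 and 0.33, edgeR).

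Of the 39 genes, 5 were higher in both fits (Cdk6, Ccnd2, Bub1b, Kif20a and Kif23), or 12.8%, where 12.4% of all genes were. Another 5 were lower in both (Cdkn1a, Aurka, Birc5, Cdc20 and Ube2c), against 9.91% of all genes. Kif11 was higher without and lower with correction, as 0.357% of all genes were called in opposite directions. Cdk1, Cdk2 and Ccnb2 were lower only with correction, 12 genes were higher and 7 lower only without it, and 6 were called in neither fit. In both fits and without each library in turn, Cdk6, Ccnd2 and Kif20a kept their call as higher and Cdkn1a and Ube2c as lower, while 5.7% and 3.38% of all genes did. Where the correction used GC content and length of each gene's longest transcript in place of the median over its transcripts, Kif20a and Cdkn1a were the 2 of these 5 that stayed called.

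**Figure D1:**
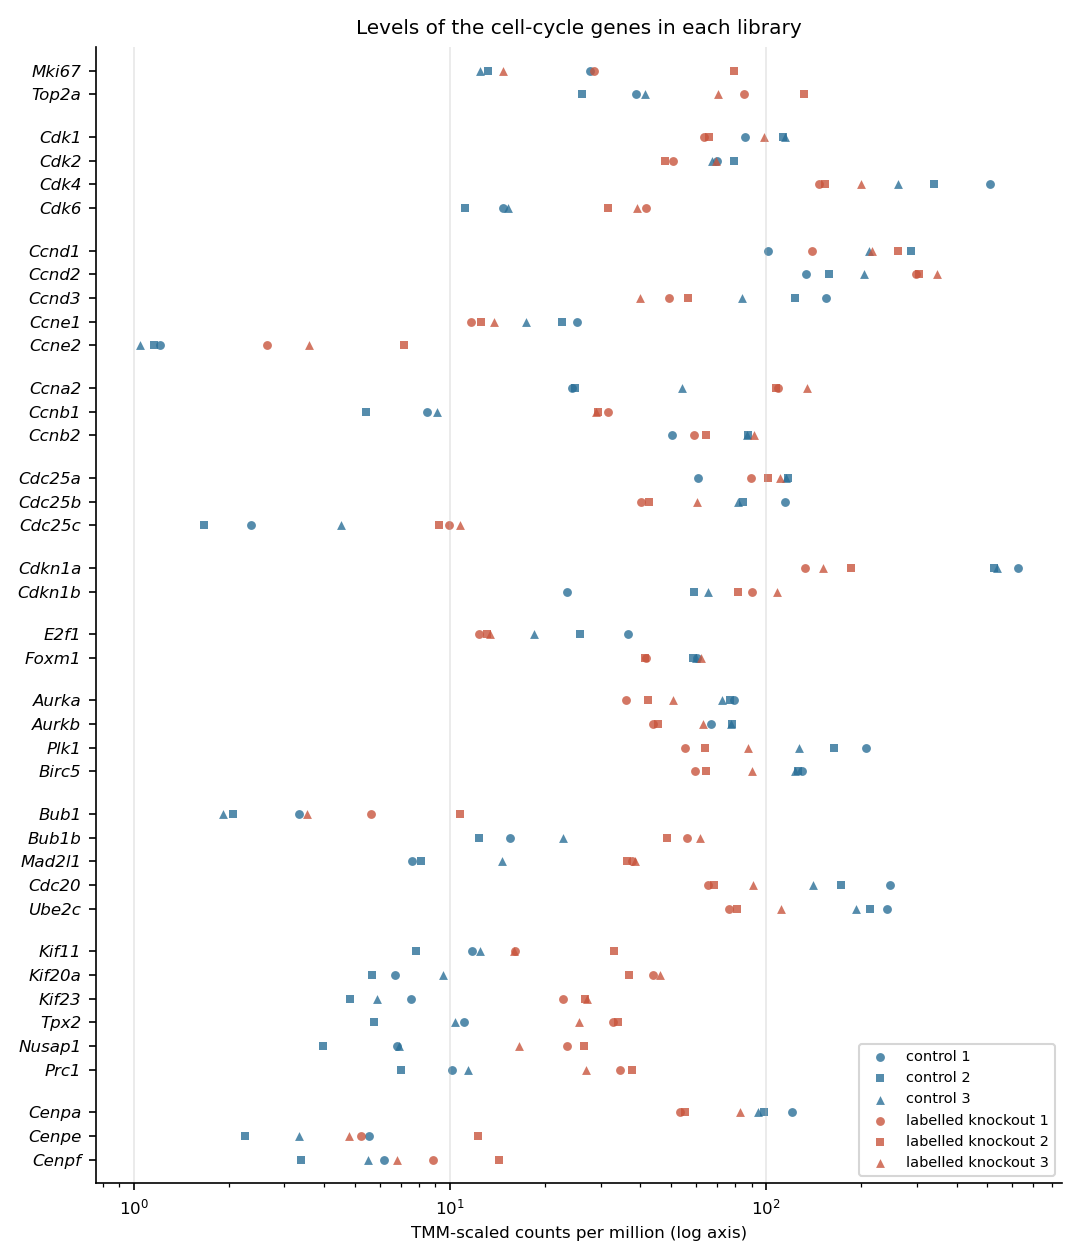
Level of each of the 39 genes in the 6 libraries, as TMM-scaled CPM on a log axis, grouped by role, with 1 symbol per library (blue, control; red, labelled knockout). Groups stand apart with the libraries labelled knockout on the right for 18 genes and on the left for 13, and overlap for 8.

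The libraries of the groups did not overlap in CPM for 31 of the 39 genes. The libraries labelled knockout were above for 18, where 39% of all genes were, and the control libraries for 13, where 33.6% were. After correction the counts were 8 and 12, beside 22.8% and 25% of all genes. For a single gene, an exact permutation test of 3 against 3 libraries cannot go below p = 0.10, two-sided, so the fits across all genes carry the tests. Among the libraries labelled knockout, library 3 held the highest value of its group for 24 of the 39 genes and library 1 the lowest for 19.

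Kif20a, a kinesin of the central spindle needed for cytokinesis (ENSMUSG00000003779.16), had the largest uncorrected fold change of the 39 genes. It was at 6.72, 5.67 and 9.51 CPM in the control libraries and at 44.0, 36.9 and 46.1 CPM in those labelled knockout, with no overlap. Group means were 7.30 ± 1.99 and 42.3 ± 4.81 CPM (SD, n = 3 each). Its change on the log2 scale was 2.53 (SE 0.28, adjusted p = 0.00019 in edgeR's quasi-likelihood test) without and 1.48 (SE 0.21, adjusted p = 0.0018) with correction. It was 1.66 with the longest transcript (adjusted p = 0.0016) and ranged from 1.35 to 1.57 in the corrected fits without each library. Of its annotated exon bases, 29.3% lie opposite exons of Cdc23, a subunit of the anaphase-promoting complex. The sources used here do not state whether counting used strand, so reads of the shared bases cannot be assigned to one of the pair. Cdc23 was also higher, at 6.20, 7.41 and 13.2 CPM against 34.4, 29.1 and 32.8 CPM, with log2 fold changes of 1.84 and, corrected, 0.81 (adjusted p = 0.00049 and 0.02, edgeR).

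Kif23, the kinesin of the centralspindlin complex, was at 7.55, 4.83 and 5.91 CPM in the control libraries and at 22.7, 26.7 and 27.1 CPM in those labelled knockout. The groups lay far apart, and the change on the log2 scale was 2.07 (SE 0.27, adjusted p = 0.0002) and, corrected, 0.93 (SE 0.25, adjusted p = 0.022, edgeR). The corrected call ended when control library 2 or 3 or knockout library 2 or 3 was left out, at adjusted p values of 0.054 to 0.09.

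The other 4 spindle and cytokinesis genes were higher without correction, so that all 6 were. The median GC content of the 6 was 45.8%, and below 47% GC 77.9% of all tested genes were higher. Kif20a at 49.0% and Tpx2 at 47.8% lay between 47% and 52% GC, where 46.4% of all tested genes were higher. Tpx2, which activates Aurora A on the spindle, had a log2 fold change of 1.76, Nusap1, a microtubule-binding protein, 1.92, and Prc1, which bundles the central spindle, 1.79 (adjusted p = 0.00051, 0.00044 and 0.00034, edgeR). With correction they were at 0.41, 0.45 and 0.40 and not called (adjusted p = 0.28, 0.17 and 0.16). Their levels were 3.96 to 11.4 CPM in the control libraries and 16.6 to 37.8 CPM in those labelled knockout.

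Kif11, the motor that pushes the spindle poles apart, showed how far the correction reaches. It was at 11.7, 7.79 and 12.5 CPM in the control libraries and at 16.1, 33.2 and 16.0 CPM in those labelled knockout, and was called higher at 1.03 (SE 0.34, adjusted p = 0.018, edgeR). Knockout library 2 stood well above the other two libraries of its group. Without that library the uncorrected value was 0.59 (adjusted p = 0.15). After correction the levels were 22.1, 16.7 and 19.4 CPM against 8.83, 15.1 and 10.2 CPM, and the gene was called lower at -0.77 (SE 0.25, adjusted p = 0.044). That corrected call was lost without any 1 library other than knockout library 2, and with the longest transcript (adjusted p = 0.12).

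p21, encoded by Cdkn1a (ENSMUSG00000023067.14, GRCm38 chr17:29090976-29100727), inhibits cyclin-dependent kinases and is a p53 target that is high in cells leaving the cycle. It was lower in the libraries labelled knockout, at 133, 186 and 151 CPM against 626, 526 and 538 CPM. The means were 157 ± 27.1 and 563 ± 54.8 CPM (SD, n = 3 each), and no library of one group came near the other. Its change on the log2 scale was -1.85 (SE 0.23, adjusted p = 0.00019 by edgeR) without correction, -1.30 (SE 0.18, adjusted p = 0.0019) with it and -1.09 (adjusted p = 0.0042) with the longest transcript. It ranged from -1.45 to -1.19 in the corrected fits without each library. Per kilobase of the longest transcript, Cdkn1a had the highest level of the 39 genes in the control libraries, 271 CPM per kb, and the next to highest after Cdk4 in those labelled knockout, 75.4 CPM per kb.

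p27, encoded by Cdkn1b, another inhibitor of the same kinases, had 23.4, 59.1 and 65.5 CPM in the control libraries and 90.1, 81.8 and 109 CPM in those labelled knockout. It was called higher without correction, at 0.92 (SE 0.34, adjusted p = 0.033, edgeR), and lay at -0.63 (adjusted p = 0.23) with it. The uncorrected call ended when knockout library 1 or 3 was left out (adjusted p = 0.051 and 0.078). The ratio of p21 to p27 transcripts within a library, on the log2 scale, was 3.64 ± 0.95 in the control libraries and 0.74 ± 0.39 in those labelled knockout (SD, n = 3 each) before correction, without overlap. After correction the groups overlapped, at 2.57 ± 0.88 and 1.82 ± 0.61.

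Among the D cyclins, which pair with Cdk4 and Cdk6, Ccnd2 and Ccnd3 went opposite ways without correction. Ccnd2 was at 133, 158 and 204 CPM in the control libraries and 298, 304 and 346 CPM in those labelled knockout, a log2 fold change of 0.94 (SE 0.23, adjusted p = 0.0034, edgeR) and, corrected, 1.34 (SE 0.20, adjusted p = 0.0021). Ccnd3 was at 154, 124 and 84.1 CPM against 49.4, 56.5 and 39.8 CPM, a log2 fold change of -1.31 (SE 0.27, adjusted p = 0.0012) and, corrected, -0.17 (adjusted p = 0.53). Ccnd1, the remaining D cyclin, had 101, 287 and 211 CPM against 139.7, 261 and 217 CPM. These overlapped fully, and it was called in neither fit (0.04 and 0.83, adjusted p = 0.92 and 0.16).

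The kinase partners split in the same manner. Cdk6 was higher, at 14.7, 11.2 and 15.3 CPM against 41.7, 31.7 and 39.02 CPM, with log2 fold changes of 1.45 (SE 0.25, adjusted p = 0.00054, edgeR) and, corrected, 2.28 (SE 0.24, adjusted p = 0.0012). Cdk4 was at 509, 341 and 261 CPM in the control libraries and 147, 154 and 200.2 CPM in those labelled knockout, called lower without correction at -1.15 (SE 0.27, adjusted p = 0.0029) and not with it at -0.48 (adjusted p = 0.13).

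The calls of Cdk6 and Ccnd2 depended on the transcript from which the GC content was read. Over the annotated transcripts of Cdk6 the median GC content was 56.8% and that of the longest transcript 45.1%, and for Ccnd2 the values were 53.3% and 47.1%. With the longest transcript the corrected log2 fold changes were -0.19 for Cdk6 and -0.40 for Ccnd2 (adjusted p = 0.51 and 0.11, edgeR), so both calls ended and both signs turned. Which transcripts these cells express was not analysed here. The ratio of Cdk6 to Cdk4 within a library was higher by 2.56 on the log2 scale in the libraries labelled knockout without correction, by 2.77 with it and by 0.33 with the longest transcript. In the last case the groups overlapped, and the ratio of Ccnd2 to Ccnd3 behaved alike, with differences of 2.24, 1.54 and 0.16.

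The E cyclins, partners of Cdk2 at the start of DNA synthesis, also parted before correction. Ccne1 was at 25.3, 22.6 and 17.4 CPM against 11.6, 12.6 and 13.8 CPM (log2 fold change -0.78, SE 0.25, adjusted p = 0.017, edgeR), and Ccne2 at 1.21, 1.16 and 1.05 CPM against 2.64, 7.18 and 3.59 CPM (1.97, SE 0.42, adjusted p = 0.0017). The groups did not overlap for either gene. Neither was called with correction, at -0.60 (adjusted p = 0.072) and 0.71 (adjusted p = 0.17). The Ccne1 call was lost without control library 1 or knockout library 1 or 2, at adjusted p values of 0.051 to 0.083. Of the exon bases of Ccne2, 17.4% lie opposite exons of Ints8.

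Cdk1, the kinase of mitosis, and Cdk2, that of DNA synthesis, overlapped between the groups without correction and were called lower with it. Cdk1 had 85.5, 113 and 114 CPM in the control libraries and 63.8, 66.2 and 98.3 CPM in those labelled knockout (-0.46, SE 0.24, adjusted p = 0.12, edgeR). Corrected, it was at 121, 141 and 117 CPM against 51.6, 54.3 and 82.5 CPM, a log2 fold change of -1.01 (SE 0.21, adjusted p = 0.0085). Cdk2 had 69.7, 79.2 and 67.5 CPM against 50.9, 47.9 and 69.5 CPM (-0.36, adjusted p = 0.18) and, corrected, a log2 fold change of -1.33 (SE 0.23, adjusted p = 0.0042). Both corrected calls held without each library in turn and with the longest transcript, at -1.55 and -1.14 (adjusted p = 0.0024 and 0.0077).

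Of the cyclins of the later phases, Ccnb1 and Ccna2 were called higher without correction, while Ccnb2, like Cdk1, was called only with it, as lower. Ccnb1, cyclin B1, was at 8.48, 5.44 and 9.08 CPM in the control libraries and at 31.7, 29.4 and 28.9 CPM in those labelled knockout, with no overlap. Its change on the log2 scale was 1.97 (SE 0.27, adjusted p = 0.00022, edgeR) without correction, 0.57 (SE 0.20, adjusted p = 0.061) with it and 0.79 (adjusted p = 0.024) with the longest transcript. Ccna2, cyclin A2, was at 24.3, 24.9 and 54.0 CPM against 109, 107 and 134 CPM (1.76, adjusted p = 0.00072) and, corrected, at 0.53 (adjusted p = 0.13). Ccnb2, cyclin B2, had 50.4, 87.3 and 87.1 CPM against 59.0, 64.5 and 91.6 CPM, which overlapped, with log2 fold changes of -0.06 (adjusted p = 0.84) and, corrected, -0.81 (SE 0.23, adjusted p = 0.028). The corrected call of Ccnb2 was lost without control library 2 or 3 or knockout library 1 or 2, at adjusted p values of 0.052 to 0.11, and with the longest transcript at -0.32 (adjusted p = 0.32). The ratio of Ccnb1 to Cdk1 transcripts within a library was higher by 2.47 on the log2 scale in the libraries labelled knockout without correction, 1.62 with it and 2.39 with the longest transcript, without overlap each time.

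The CDC25 phosphatases, which activate the cyclin-dependent kinases, showed 3 patterns. Cdc25b had 114, 84.2 and 81.4 CPM against 40.1, 42.6 and 60.5 CPM (-0.97, SE 0.25, adjusted p = 0.0049, edgeR) and Cdc25c 2.35, 1.67 and 4.54 CPM against 9.92, 9.25 and 10.7 CPM (1.799, SE 0.38, adjusted p = 0.0016). Neither was called with correction, at -0.33 (adjusted p = 0.25) and 0.84 (adjusted p = 0.061). Cdc25a, with 61.0, 118 and 116 CPM against 89.7, 102 and 111 CPM, overlapped and was called in neither fit. With the longest transcript it was called lower at -1.22 (adjusted p = 0.0078).

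The transcription factors E2f1 and Foxm1, which drive the genes of DNA synthesis and of mitosis, kept no call after correction. E2f1 was at 36.7, 25.9 and 18.5 CPM in the control libraries and at 12.4, 13.1 and 13.4 CPM in those labelled knockout, called lower without correction at -1.06 (SE 0.28, adjusted p = 0.0061, edgeR) and not with it at -0.24 (adjusted p = 0.39). Foxm1 had 60.3, 58.6 and 60.2 CPM against 41.8, 41.5 and 62.2 CPM, and was called in neither fit (-0.30 and 0.08, adjusted p = 0.27 and 0.79). Knockout library 3 stood above all 3 control libraries.

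Survivin, encoded by Birc5 (ENSMUSG00000017716.15, GRCm38 chr11:117849251-117855743), belongs to the chromosomal passenger complex that Aurora B drives. It was lower in the libraries labelled knockout, at 59.7, 64.5 and 90.4 CPM against 130.1, 126 and 124 CPM, with no overlap. Its change on the log2 scale was -0.83 (SE 0.23, adjusted p = 0.007 by edgeR) without correction, where the call was lost without knockout library 1 (adjusted p = 0.051) and with total count scaling (-0.35, adjusted p = 0.13). With correction it was -1.70 (SE 0.24, adjusted p = 0.0019), with the longest transcript -1.87 (adjusted p = 0.0017), and the corrected call held without each library.

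Aurora A, encoded by Aurka (ENSMUSG00000027496.15, GRCm38 chr2:172356190-172370535), matures the spindle poles. It was at 79.1, 76.7 and 72.5 CPM in the control libraries and at 36.1, 42.2 and 50.9 CPM in those labelled knockout. The control libraries lay close together and above all 3 others. Its log2 fold changes were -0.82 (SE 0.22, adjusted p = 0.0066, edgeR), lost without knockout library 1 (adjusted p = 0.054) and with total count scaling (-0.35, adjusted p = 0.13), and, corrected, -1.11 (SE 0.20, adjusted p = 0.0048), which held without each library and with the longest transcript at -0.68 (adjusted p = 0.027).

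Plk1, the polo-like kinase of mitotic entry and exit, was at 206, 164 and 128 CPM against 55.6, 64.3 and 87.4 CPM. It was called lower without correction at -1.27 (SE 0.26, adjusted p = 0.0013, edgeR) and not with it at -0.32 (adjusted p = 0.24). Aurkb, Aurora B itself, had 66.8, 78.2 and 77.2 CPM against 43.9, 45.4 and 63.0 CPM. Its groups did not overlap, and it was called in neither fit (-0.55 and -0.42, adjusted p = 0.053 and 0.11).

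At the spindle checkpoint, Bub1b, the BubR1 protein that holds back Cdc20, was at 15.5, 12.4 and 22.8 CPM in the control libraries and at 56.2, 48.6 and 62.0 CPM in those labelled knockout, with no overlap. Its change on the log2 scale was 1.72 (SE 0.28, adjusted p = 0.0004, edgeR) and, corrected, 0.77 (SE 0.21, adjusted p = 0.022). The corrected call ended when control library 2, knockout library 1 or knockout library 3 was left out (adjusted p = 0.093, 0.062 and 0.067). It stood at 1.30 (adjusted p = 0.0041) with the longest transcript.

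Mad2l1, which binds Cdc20 when kinetochores are unattached, was at 7.58, 8.12 and 14.6 CPM against 37.6, 36.3 and 38.6 CPM (1.89, SE 0.29, adjusted p = 0.00036, edgeR) and, corrected, at 0.46 (adjusted p = 0.17). Bub1, a checkpoint kinase, was at 3.32, 2.06 and 1.92 CPM against 5.65, 10.8 and 3.53 CPM, with the 2 groups almost touching. It was called higher without correction (1.45, SE 0.43, adjusted p = 0.011), a call lost without control library 2 or 3 or knockout library 2 at adjusted p values of 0.071 to 0.078, and lay at 0.20 (adjusted p = 0.70) with it.

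Cdc20, the activator that the checkpoint holds back, and Ube2c, the conjugating enzyme of the anaphase-promoting complex, were both lower. Cdc20 was at 247, 173 and 141 CPM in the control libraries and at 65.6, 68.6 and 91.2 CPM in those labelled knockout (-1.32, SE 0.26, adjusted p = 0.0011, edgeR). Corrected, it was at -0.68 (SE 0.21, adjusted p = 0.04), a call lost without control library 1 or 2 or knockout library 1 or 2 at adjusted p values of 0.071 to 0.14. Ube2c was at 240.3, 212 and 192 CPM against 76.5, 80.8 and 111 CPM, with log2 fold changes of -1.26 (SE 0.23, adjusted p = 0.00071) and, corrected, -0.94 (SE 0.19, adjusted p = 0.008). The groups did not overlap for either gene. With the longest transcript both calls ended, at -0.31 and -0.38 (adjusted p = 0.27 and 0.15). The checkpoint protein and its target were called in opposite directions, and the log2 ratio of Bub1b to Cdc20 was higher by 3.05 in the libraries labelled knockout without correction, by 1.44 with it and by 1.63 with the longest transcript, with no overlap each time.

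The centromere genes kept no call after correction. Cenpa, the histone variant that marks centromeres, was at 121, 98.3 and 94.3 CPM against 53.3, 55.3 and 82.9 CPM and called lower without correction (-0.71, SE 0.24, adjusted p = 0.021, edgeR), a call lost without knockout library 1 or 2 (adjusted p = 0.11 and 0.1). It lay at -0.56 (adjusted p = 0.076) with correction and was called lower, at -1.60 (adjusted p = 0.0042), with the longest transcript. Cenpf, a kinetochore protein, was at 6.20, 3.38 and 5.50 CPM against 8.83, 14.3 and 6.82 CPM (0.99, SE 0.36, adjusted p = 0.028), and Cenpe, a kinetochore kinesin, at 5.54, 2.25 and 3.35 CPM against 5.24, 12.3 and 4.80 CPM (1.002, SE 0.45, adjusted p = 0.065). Corrected, they were at -0.47 and -0.17 (adjusted p = 0.28 and 0.79). The Cenpf call was lost without control library 2 or 3 or knockout library 2, and in DESeq2's Wald test (0.81, adjusted p = 0.057).

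The usual markers of dividing cells gave no shared answer. Mki67, the gene of the Ki-67 antigen, had 27.8, 13.2 and 12.5 CPM in the control libraries and 28.5, 79.2 and 14.7 CPM in those labelled knockout. The groups overlapped, a single library held the high value, and neither fit called it (1.19, SE 0.60, adjusted p = 0.11, and, corrected, -0.32, adjusted p = 0.74, edgeR). Top2a, the topoisomerase that untangles chromosomes, was at 38.7, 26.1 and 41.4 CPM against 85.0, 132 and 70.3 CPM, called higher without correction (1.44, SE 0.29, adjusted p = 0.0012) and at 0.08 (adjusted p = 0.78) with it. Knockout library 2 held the highest value of all 6 libraries for 10 genes: Mki67, Top2a, Ccne2, Bub1, Kif11, Tpx2, Nusap1, Prc1, Cenpe and Cenpf.

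**Figure D2:**
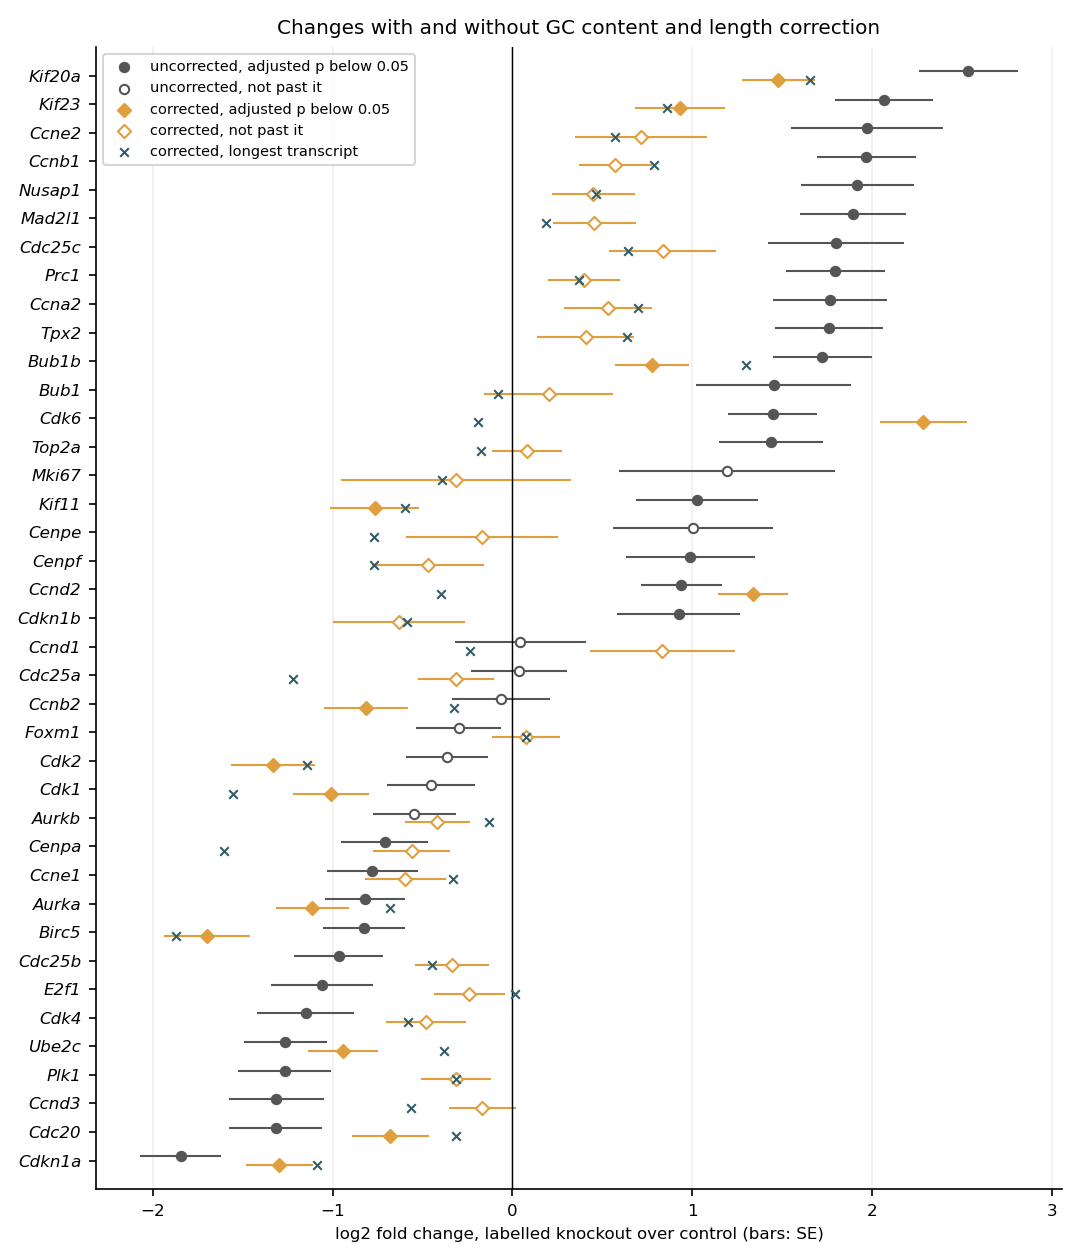
Log2 fold change of each gene, labelled knockout over control, without correction (grey circles) and with it (orange diamonds), with bars for the SE and filled symbols where the adjusted p is below 0.05. Crosses give the corrected value with the longest transcript. Without correction 18 genes are filled on the right and 12 on the left, and with correction 5 and 9.

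The uncorrected direction of a gene followed its GC content. The 18 higher genes had a median transcript GC content of 45.5% and the 12 lower genes one of 54.2%. Below 47% GC lay 14 of the genes, of which 13 were higher without correction and the other, Cenpe, was not called, in a range where 77.9% of all tested genes were higher and 2.31% lower. At 52% and above lay 15, of which 2 were higher and 10 lower, where the shares of all genes were 5.85% and 58.0%. Across the 39 genes, which share the 6 libraries, the Spearman correlation of log2 fold change with GC content was -0.74 without and -0.18 with correction, and over all genes it was -0.74 without.

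Genes of like GC content still differed. Between 47% and 52% GC lay 10 genes, 3 higher and 2 lower without correction, against 46.4% and 12.3% of all tested genes in that range. With correction 1 was higher and 5 lower, against 21.5% and 23.2%. Kif20a at 49.0% GC had an uncorrected log2 fold change of 2.53, whereas Birc5 at 49.4% had -0.83, Cdk2 at 49.2% -0.36, Cdk1 at 49.5% -0.46 and Ccnb2 at 49.3% -0.06. For this pair, chosen because the genes differ, the log2 ratio of Kif20a to Birc5 within a library was -4.15 ± 0.40 in the control libraries and -0.74 ± 0.27 in those labelled knockout (SD, n = 3 each). The difference was 3.41 without correction, 3.19 with it and 3.55 with the longest transcript, and the groups did not overlap each time.

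**Figure D3:**
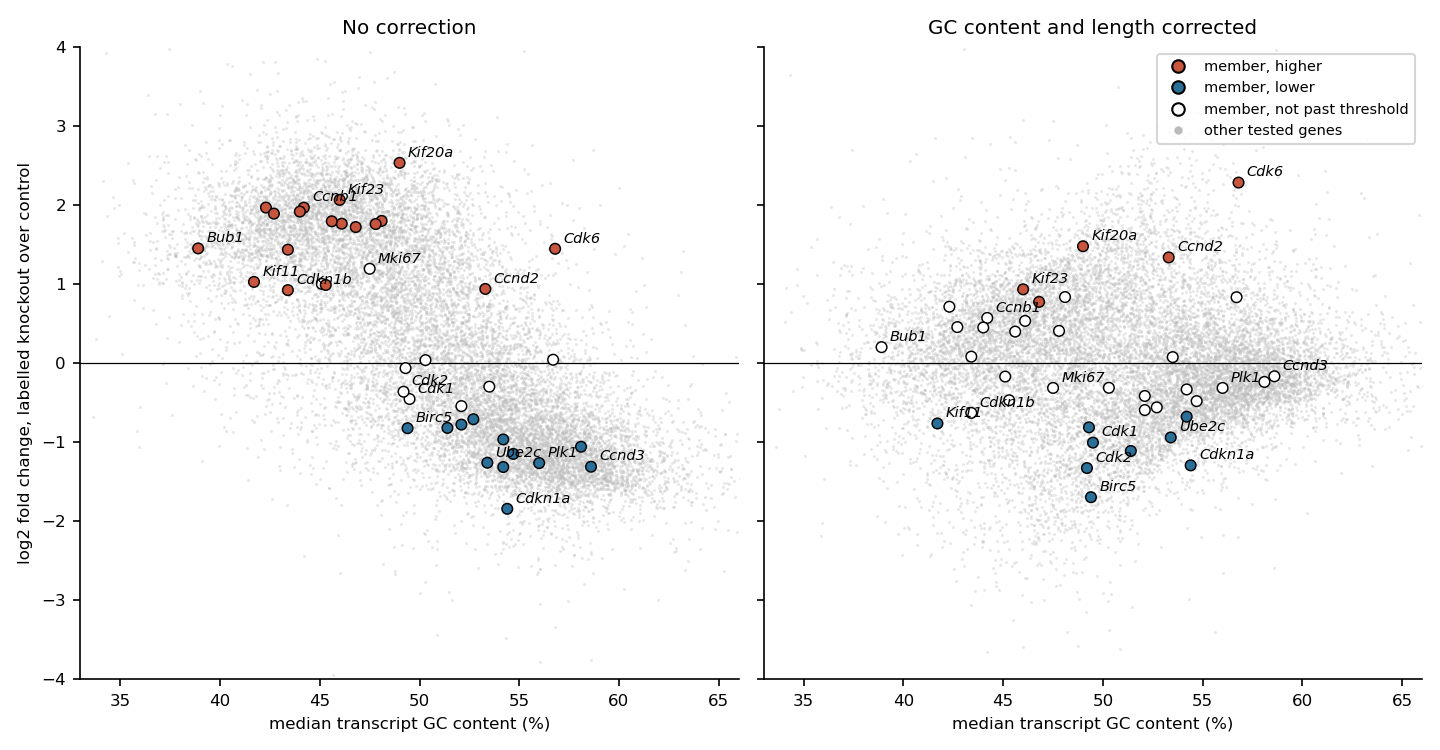
Log2 fold change against median transcript GC content (%) without correction (left) and with it (right), with the 39 genes as circles (red, higher; blue, lower; open, not called) over all tested genes in grey. Genes beyond the drawn axes are not shown. On the left the circles follow the grey band from upper left to lower right, and Kif20a and Birc5 lie far apart at about the same GC content.

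The calls that remained after correction differed in how well they held. Of the 5 higher calls, those of Kif20a, Kif23 and Bub1b stayed with the longest transcript, and those of Cdk6 and Ccnd2 did not. Of the 9 lower calls, those of Cdkn1a, Aurka, Birc5, Cdk1 and Cdk2 stayed, and those of Cdc20, Ube2c, Ccnb2 and Kif11 did not. In that setting 4 genes were higher and 7 lower in all, with Ccnb1 among the higher and Cdc25a and Cenpa among the lower. The median log2 fold change there was -0.31 over the 39 genes and -0.02 over all tested genes, and shares of all genes are not given for that setting alone. Called alike in both fits and with the longest transcript were 3 higher genes (Kif20a, Kif23 and Bub1b) and 3 lower (Cdkn1a, Aurka and Birc5) of the 39, where 8.76% and 6.33% of all tested genes were. With correction for GC content alone, the calls of Kif23 and Bub1b ended, at 0.74 and 0.54 (adjusted p = 0.053 and 0.074, edgeR). Those of Kif20a, Cdkn1a, Aurka and Birc5 stayed.

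**Figure D4:**
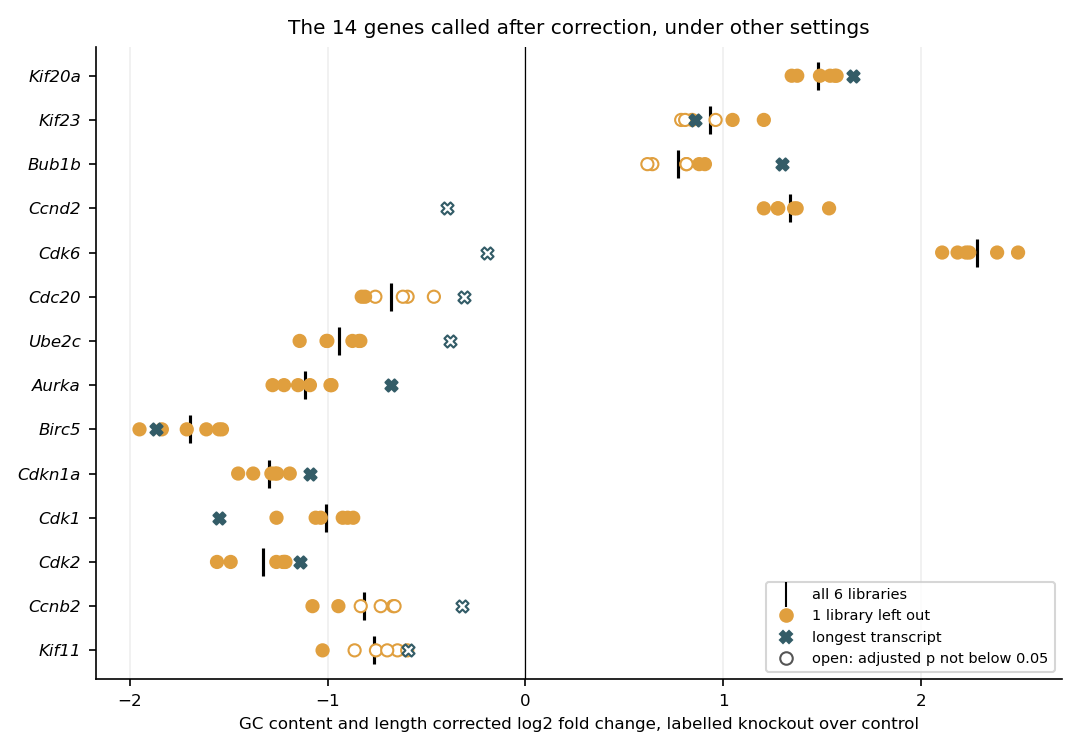
Corrected log2 fold change, labelled knockout over control, of the 14 genes called after correction: with all 6 libraries (bar), with 1 library left out (circles) and with GC content and length of the longest transcript (crosses). Open symbols have an adjusted p that is not below 0.05. For Kif20a, Cdkn1a, Birc5, Aurka, Cdk1 and Cdk2 all symbols are filled.

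**Figure D5:**
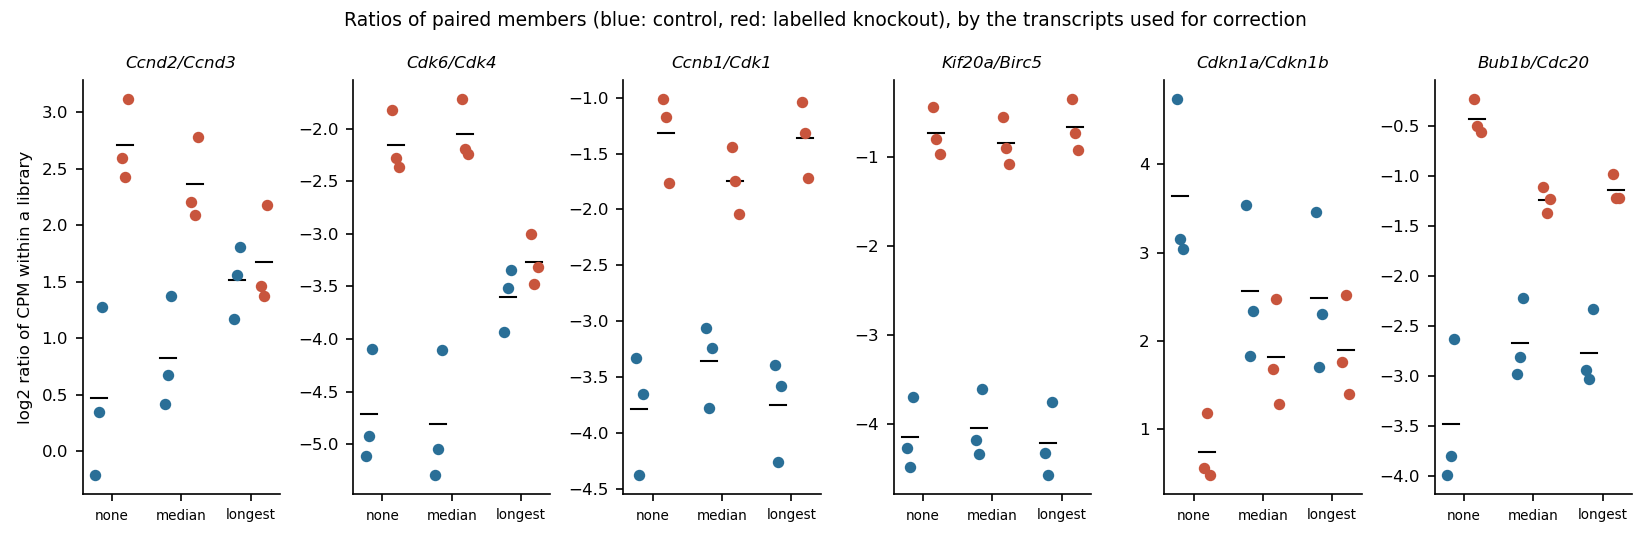
Log2 ratio of the CPM of paired genes within each library, for 6 pairs, without correction and corrected with the median over transcripts or the longest transcript (blue, control; red, labelled knockout; bars, group means). Ccnb1 to Cdk1, Kif20a to Birc5 and Bub1b to Cdc20 stay apart under all 3, and the other pairs overlap with the longest transcript.

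In all, 6 such pairs were described. They were chosen with the genes' changes known, Kif20a and Birc5 as 2 genes of like GC content that moved apart, so their separation is no test. A ratio within a library does not depend on how that library is scaled, but without correction it still holds that library's trend with GC content and length. It describes how far the counts of 2 genes differed between the groups, not which of them changed. Each of the 6 pairs separated the groups without correction, and 5 did with it.

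Other genes of the same machinery were counted from 7 lists, to be read against all tested genes, of which 37.2% were higher and 29.7% lower without correction and 14.3% and 15.6% with it. Among 44 further genes of the mitotic spindle and kinetochore, 32 were higher and 8 lower without correction, with a median log2 fold change of 1.43, and 12 and 3 with it, with a median of 0.46. The median GC content of that list was 46.4%, and below 47% GC 77.9% of all tested genes were higher without correction. Nuf2, a kinetochore subunit, and Ckap2, a spindle protein, were higher in both fits (corrected log2 fold changes 0.98 and 1.07, adjusted p = 0.023 and 0.02, edgeR). Pttg1, the securin that anaphase destroys, and Cdca8, borealin of the passenger complex, were lower in both (corrected -1.71 and -0.88, adjusted p = 0.002 and 0.012). The passenger complex was not uniform: beside Birc5 and Cdca8, Aurkb was not called, and its scaffold Incenp, named after its values were seen, was higher in both fits (0.73 and, corrected, 1.55, adjusted p = 0.016 and 0.0023).

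Of 16 subunits and partners of the anaphase-promoting complex, 6 were higher and 6 lower without correction, and 2 and 6 with it (medians -0.24 and -0.43). Cdc16 was higher in both fits (corrected 1.55, adjusted p = 0.002, edgeR), as was Cdc23. Anapc11, the RING subunit, and Ube2s, which extends the ubiquitin chains that Ube2c begins, were lower in both (corrected -1.57 and -0.57, adjusted p = 0.0026 and 0.043). Of 18 condensin and cohesin genes, 13 were higher and 1 lower without correction, and 4 and 1 with it (medians 1.13 and -0.27). Rad21, the cohesin subunit that separase cuts, was at 32.0, 21.2 and 37.3 CPM against 149.7, 148 and 199 CPM, and higher in both fits (2.46 and, corrected, 1.89, adjusted p = 0.00019 and 0.0016). Ncapd3 of condensin II was at 0.72 with correction (adjusted p = 0.047).

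Upstream of mitosis, 18 of 31 DNA replication genes were higher and 7 lower without correction, and 10 and 1 with it (medians 1.05 and 0.21). Prim1, of the primase, and Rrm1, of ribonucleotide reductase, were higher in both fits (corrected 1.39 and 1.39, adjusted p = 0.0029 and 0.0036, edgeR), and Mcm5, of the replicative helicase, was lower in both (corrected -1.06, adjusted p = 0.017). Of 18 genes of the RB, E2F and DREAM group, 13 were higher and 4 lower without correction, and 3 and 1 with it (medians 1.41 and 0.34). Rbl2, the p130 protein of DREAM, and Lin9, of MuvB, were higher in both fits (corrected 1.42 and 1.12, adjusted p = 0.0018 and 0.028).

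Of 25 other regulators of cyclin-dependent kinases tested, 11 were higher and 8 lower without correction, and 3 and 5 with it (medians 0.06 and -0.13). Skp2, which marks p27 for destruction, was higher in both fits (corrected 0.90, adjusted p = 0.015, edgeR), as was the phosphatase Cdc14b (corrected 0.87, adjusted p = 0.019). Cks1b, a small partner of Cdk1 and Cdk2, and Cdkn2c, the p18 inhibitor of Cdk4 and Cdk6, were lower in both (corrected -1.59 and -1.18, adjusted p = 0.0025 and 0.0097). Of 19 tested p53 targets and partners, the group to which p21 also belongs, 8 were higher and 7 lower without correction, and 3 and 4 with it (medians 0.16 and -0.13). Mdm2, which degrades p53, and Sesn1 were higher in both fits (corrected 0.71 each, adjusted p = 0.015 and 0.034), and Sesn2 and Trp53, the gene of p53 itself, were lower in both (corrected -0.65 and -0.78, adjusted p = 0.038 and 0.027).

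Exons of 19 of the 39 genes share bases with another annotated gene. Besides Kif20a and Ccne2, the largest shares were 23.4% for Ccnd1 with the gene LTO1, 22.8% for Ube2c with Tnnc2, 19.7% for Cdk4 with Tspan31, 12.7% for Cdc25c with Gm3550, 12.5% for Ccna2 with Exosc9 and 11.1% for Prc1 with Rccd1, all on opposite strands. Tnnc2 had 0 to 2 reads in a library and Gm3550 0 to 5. The other partners named were Tspan31 with 3128 to 6655, LTO1 with 697 to 1062, Exosc9 with 90 to 930, Ints8 with 78 to 700, Rccd1 with 141 to 429 and Cdc23 with 179 to 1419, and reads of the bases they share cannot be told apart. Ccne2 itself had 35 to 243 reads.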

How the data were processed

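RNA of 6 libraries of small-intestine epithelial cells was sequenced by a standard Illumina protocol, per the labels' protocols. Libraries were grouped by genotype label, 3 against 3, and replicate numbers only name them. Per the submitters' processing notes, STAR 2.6.1c, Subread 1.6.1, cutadapt 1.18, SAMtools 1.8 and FastQC 0.11.8 were used with the GRCm38 (mm10) build. Settings, strand included, are not given in the sources used here. Raw gene-level read counts, as the authors deposited them, were the input. Their normalised and log-scale sheets were not used here.

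GENCODE M21 (GRCm38) gave symbols, positions, transcript GC content and length, and matched 55117 of 55298 identifiers. Genes were filtered by filterByExpr (minimum count 10, minimum total 15), scaled by TMM and compared with edgeR 4.0.16 (robust quasi-likelihood test, limma 3.58.1, R 4.3.3), with Benjamini-Hochberg adjustment over all tested genes and a threshold of 0.05. TMM factors were 0.75 to 0.92 in the control libraries and 1.12 to 1.27 in those labelled knockout. For the correction, log2 CPM values (prior count 2) of a library, less the mean of all libraries, were fitted by natural splines of log2 length (5 degrees of freedom) and GC content (6), both medians over a gene's transcripts, and the fit served as an offset, for 15135 genes. Within-library ratios are a description, with no test. Library pairs differed by a chi-square of at least 48.7 per degree of freedom over the genes, and none was treated as a repeat of another.

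On data simulated without a trend, the uncorrected fit found 39% of 2-fold and 91% of 4-fold changes in the comparison of knockout with control, with 5 false calls among 14850 genes. With the libraries' own trends added it made 8304 false calls among 14840 genes, and the corrected fit 8, while finding 33% and 87% of the changes. The simulated trends were fitted to these same libraries and have the form that the correction removes, so its low count of false calls follows from that setting. The cause of the trend in the real libraries was not tested.

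The 39 genes and the other lists were chosen with earlier results of these data known. Named were all 39 genes, Epas1, and from each further list of the cell cycle at most 2 genes with the largest and 2 with the smallest log2 fold change among those called alike in both fits at a mean of 1 CPM or more. Alternatives were other scalings, limma-voom with sample weights, the Wald test of DESeq2 1.42.0, other filters, no robust estimation, correction for GC content or length alone, the longest transcript, 3 spline degrees of freedom, a threshold of 0.01 and each library left out.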

Additional observations from a re-analysis of the deposited data

How the results depend on the processing

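No paired analysis was possible because the labels name the controls as littermates but give no litter or other pairing of the libraries. Of the counts of the 39 genes, the 18 higher without correction became 5 with it and 15 to 19 without each library. The 12 lower became 6 with total count scaling and 8 to 14 without each library. The corrected count of 5 higher became 10 with limma-voom, 3 with GC content alone, 16 with length alone, 3 at an adjusted p below 0.01 and 3 to 7 without each library, with 3 reached without control library 2 or knockout library 3. The corrected 9 lower ranged from 6 to 10 without each library. The other settings kept these 4 counts within 1.5 times. The median log2 fold change of all genes was 0.15 with TMM, 0.61 with total counts and 0.02 with DESeq2 size factors.

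Signs of single genes turned as follows, none of them past the threshold in both settings except Kif11. Against the uncorrected fit, correction gave log2 fold changes of -0.32 for Mki67, -0.31 for Cdc25a, -0.63 for Cdkn1b, 0.075 for Foxm1, -0.77 for Kif11, -0.17 for Cenpe and -0.47 for Cenpf. Total count scaling gave 0.11 for Cdk2, 0.38 for Ccnb2 and 0.17 for Foxm1. DESeq2 size factors and the DESeq2 Wald test gave -0.061 for Ccnd1 and -0.078 for Cdc25a, and limma-voom -0.26 and -0.12. Without each library, Ccnd1 ranged from -0.26 to 0.36, Ccnb2 from -0.29 to 0.065 and Cdc25a from -0.19 to 0.16.

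Against the corrected fit, length alone gave 0.32 for Mki67, -0.33 for Ccnd1, 0.059 for Cdc25a, 0.41 for Cdkn1b, -0.43 for Foxm1, 0.27 for Kif11, 1.10 for Cenpe and 0.53 for Cenpf. GC content alone gave -0.083 for Top2a and -0.084 for Bub1. The longest transcript gave -0.18 for Top2a, -0.19 for Cdk6, -0.23 for Ccnd1, -0.40 for Ccnd2, 0.015 for E2f1 and -0.082 for Bub1. Limma-voom gave 0.074 for Mki67, -0.022 for Foxm1 and 0.20 for Cenpe. Without each library, Mki67 ranged from -1.23 to 0.32, Top2a from -0.09 to 0.18, Foxm1 from -0.13 to 0.16, Bub1 from -0.071 to 0.51 and Cenpe from -0.61 to 0.31. The cause of these turns was not tested. With 3 libraries a group, and a trend with GC content that separates the groups, neither fit alone gives the size of a change, and the corrected values further depend on transcript annotation.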
